A study of Mus musculus with 12 samples.

Results

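Type II spiral ganglion neurons (SGNs) are the minority class of cochlear afferents. Their thin, unmyelinated fibres pass the inner hair cells and run along the outer hair cells, while type I SGNs, the bulk of the ganglion, are myelinated, contact inner hair cells and fall into the subtypes Ia, Ib and Ic. The filament protein peripherin and the transcription factor Gata3 are classical features of the type II class in the mouse. The neurons described here are 67 II-like cells among 1187 neurons of the E18.5 and P3 cochlea, in a series of 4226 cells that passed the filter. They were selected on their own expression. A cell counted as a neuron where its mean level of *Nefl*, *Nefm*, *Stmn2*, *Stmn3* and *Ina* exceeded both 1 and that of the hair cell genes *Calml4*, *Lhx3* and *S100a1*, with levels as the natural log of 1 plus counts per 10000. It counted as II-like (II set in the plots) where the mean z score of *Ngfr*, *Rph3a*, *Efna5*, *Prune2* and *Lgmn*, taken among the neurons of its stage, exceeded 1 and the scores of the 3 sets led by *Amigo2*, *Pcdh7* and *Ndst3*.

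Sorting by reporter placed 1 cochlear cell in each well of a plate for sequencing with Smart-seq2, which covers full transcripts. Both stages came from untreated PVcre;Ai14 mice, in which Cre driven from the parvalbumin gene turns on tdTomato, so that sorting selected against neurons without that Cre history. Each stage, the late embryo (embryonic day, E18.5) and the newborn (postnatal day, P3), had 2 plates of cells pooled from several animals. The plates of the stages belong to different plate series, so age and plate series cannot be told apart. No source states that the plates of a stage came from separate litters, and p-values then measure the spread between plates only.

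The II-like cells were 27 of 341 neurons (7.92%) and 19 of 345 (5.51%) in the E18.5 plates. At P3 they were 17 of 376 (4.52%) and 4 of 125 (3.20%), so that the second P3 plate rests on few cells. Their counts were summed per plate, giving 8930286 and 9337087 counts at E18.5 and 14854646 and 3826025 at P3. The sums of the remaining 1120 neurons held between 96242818 and 289052282 counts. All levels below are counts per 1000000 counts (CPM) of such a sum, with library sizes adjusted by the TMM method, and are listed in the order E18.5 replicates 1 and 2, then P3 replicates 1 and 2. A count of 0 in a II-like sum allows up to 0.316, 0.305, 0.203 and 0.795 CPM in that order (3 counts, counting error only, since reads carry no molecular identifiers). Fewer cells of a kind and less RNA per cell cannot be told apart within a sum.

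The edge of the class was sharp at P3 and not at E18.5. At P3 the lowest score inside was 1.94 and the highest score outside, with the II set leading, was 0.795. At E18.5 these scores were 1.04 and 0.967, and 36 cells outside had a leading II score between 0.5 and 1. Of the P3 members, 2 also scored above 1 on another set, and 2 further P3 neurons above 1 on the II genes scored higher on another set and stayed outside. A score without *Ngfr* and *Lgmn*, which glia or microglia also express, chose 77 cells and kept all 67.

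**Figure D1:**
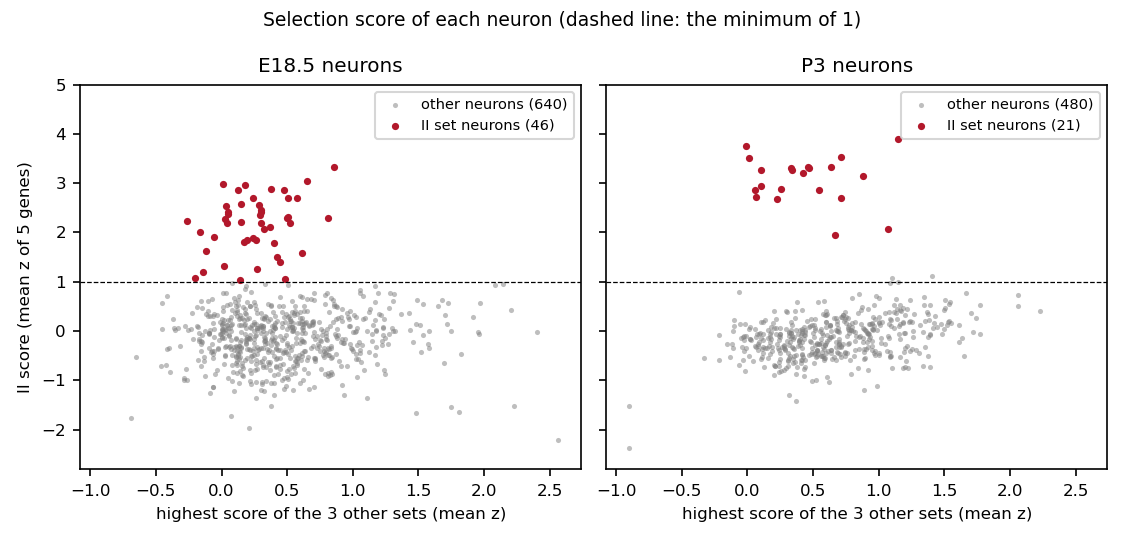
Each point is 1 neuron of E18.5 (left) or P3 (right), with its II score (mean z of 5 genes, vertical) against the highest score of the 3 other sets (mean z, horizontal), and the dashed line marks the minimum of 1. Members are red (46 and 21 cells): at P3 no cell with a leading II score lies between 0.795 and 1.94, while at E18.5 the members border directly on the other neurons in grey.

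Genes outside the rule were set beside the label. Of 10 genes listed as type II, several of which the study also names from these cells, so that they are not independent evidence, 9 were more than 2-fold higher in the II-like sum of all 4 plates, with a median log2 ratio of 3.46, while 1.26% of the 15831 genes with enough counts were (200 genes) and their median was -0.19. Of 10 type I genes, 9 were more than 2-fold lower in all 4 plates, against 3.89% of genes (616). Because cells were selected by a contrast of these same cells, ratios between the classes are a description and carry no test. The balance leans on genes near 0. With every count under 3 set to 3, 385 genes were higher and 257 lower, among them all 200 and 256 of the 616. In the gene lists below, only genes that stayed are named or counted as lower, while the 3.89% beside them is without that floor. Higher genes were thus 24.5% of the called and 60.0% with that floor, 45.7% from means over cells, 39.7% against the 3 other sets and 8.82% without cells with glial signal.

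*Prph*, which encodes peripherin, stood at 571, 592, 667 and 438 CPM in II-like neurons and at 240.5, 241, 69.6 and 19.7 CPM in the other neurons. Every II-like value lay above every value of the other neurons. *Gata3*, a zinc-finger factor needed for auditory innervation, was at 866, 877, 707 and 842 CPM against 348, 338, 118 and 85.9 CPM, again without overlap. The secreted ligand gene *Wnt5a* was at 93.3, 109.7, 90.4 and 53.5 CPM against 4.86 to 10.1 CPM elsewhere. *Sox9*, best known from glia and supporting cells, was at 46.3, 35.9, 64.4 and 84.3 CPM in II-like neurons and 0.220 to 3.99 CPM in the others, and *Tshz3*, a zinc-finger factor, at 46.5, 55.9, 84.5 and 108 CPM against 11.1 to 21.4 CPM. Of the 11 genes of the glial list none was more than 2-fold higher in all plates, and the median log2 ratio of the list was 0.07. The part of glial RNA in the level of *Sox9* was not tested.

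Genes of type I neurons ran the other way. *Prox1*, a homeobox factor kept by type I neurons, was at 15.8, 22.04, 2.98 and 5.57 CPM in II-like neurons and at 84.2 to 117 CPM elsewhere. *Runx1*, which marks the Ib and Ic subtypes, was at 15.9, 19.4, 2.17 and 0 CPM against 189 to 214 CPM, and *Pou4f1*, of the same subtypes, at 3.79, 5.38, 10.1 and 0 CPM against 101 to 161 CPM. The P3 sum of 4 cells held no count of either. *Calb2* (calretinin) stood at 86.8, 205, 344 and 47.7 CPM in II-like neurons and 591 to 2296 CPM in the others. *Pvalb*, whose Cre marked these cells, was at 42.1, 56.0, 119.9 and 238 CPM against 297, 305, 994 and 1679 CPM, lower in the II-like sum of each plate. *Rxrg*, a retinoid receptor gene, was the type I gene that did not stand lower, with 76.2, 84.2, 50.8 and 77.9 CPM against 70.7, 64.0, 30.3 and 15.1 CPM.

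**Figure D2:**
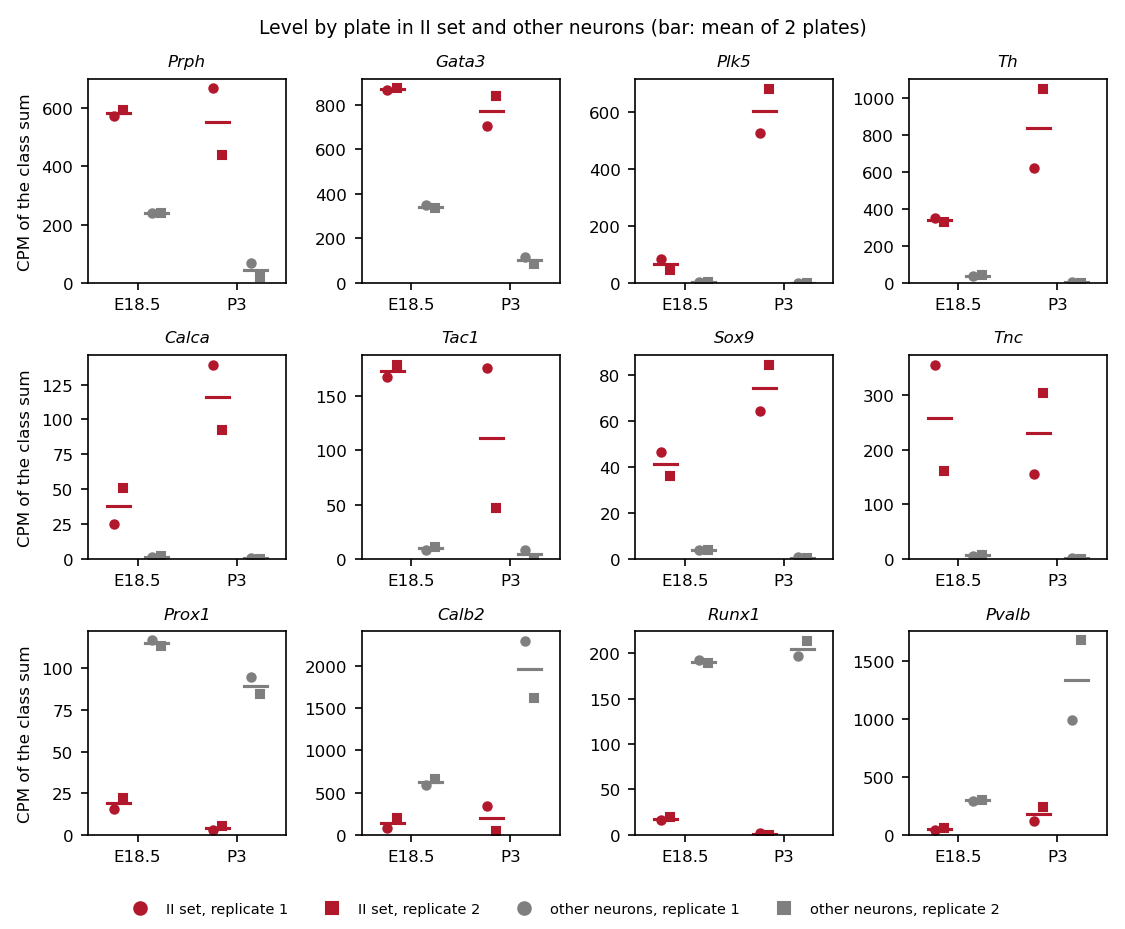
CPM (vertical, from 0) of 12 genes in the II-like sum (red) and the sum of the other neurons (grey) of each plate at E18.5 and P3, with bars at the mean of 2 plates. *Prph*, *Gata3*, *Plk5*, *Th*, *Calca*, *Tac1*, *Sox9* and *Tnc* are more than 2-fold higher, and *Prox1*, *Calb2*, *Runx1* and *Pvalb* more than 2-fold lower, in the II-like sum of all 4 plates.

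The neurons assigned to the 3 other sets differed in how far they stood from the II-like neurons. *Prph* averaged 582 CPM in II-like neurons at E18.5, 344 CPM in the *Amigo2* set, 62.1 CPM in the *Pcdh7* set and 40.6 CPM in the *Ndst3* set. At P3 the order was the same, with 553, 131, 14.4 and 2.61 CPM. *Th*, tyrosine hydroxylase of catecholamine synthesis, averaged 340.3 CPM in II-like neurons at E18.5, 63.5 CPM in the *Amigo2* set and under 3 CPM in both other sets. The *Amigo2* set thus stood nearest for both genes, and it shared the low *Lypd1* of the II-like neurons, with 4.06 CPM at E18.5 against 302 and 294 CPM in the *Pcdh7* and *Ndst3* sets. It did not share the low *Calb2*, at 1546 CPM.

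At E18.5, where the class had no gap, the same genes were read by band of the II score, as a description. In the 38 members above 1.5, a median of 9 of the 10 type II genes reached 10 CPM, and the median cell had *Plk5* at 55.4 CPM and *Prph* at 547 CPM. The 8 members between 1 and 1.5 had 6 of the 10 genes, with *Plk5* at 27.2 CPM and *Prph* at 327 CPM. The 36 cells just outside had 5 genes, with *Plk5* at 0 and *Prph* at 301 CPM, and the remaining neurons 4 genes, with *Plk5* at 0 and *Prph* at 106.6 CPM. The members nearest the border therefore lay between the core and the other neurons. The median number of type I genes at 10 CPM was 3.5, 6.5, 7 and 8 of 10 over the same bands.

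RNA of other cell types and the number of genes per cell were compared between the classes, and their part in the results was not tested. The 11 glial genes summed to 3910 and 2585 CPM at E18.5 and 7604 and 9289 CPM at P3 in the II-like neurons, and to 2957, 2932, 8095 and 10610 CPM in the others. Otic mesenchyme genes summed to 1108, 551, 225 and 100.2 CPM in II-like neurons, with 3 to 5 of the 8 at 0, and to between 186 and 661 CPM in the others. Hair cell genes summed to 98.3 to 173 CPM with 1 to 4 of the 8 at 0 (others 169.6 to 253 CPM), microglia genes to at most 5.08 CPM with 4 to 6 of the 6 at 0, and the 10 dissociation stress genes to 6238, 3472, 1822 and 1164 CPM (others 3852, 3412, 1129 and 999 CPM). Thinned to 100000 counts, the median II-like cell showed 9270, 8948, 7889 and 7947 genes and the median other neuron 8528, 8519, 7769 and 7812 (13 shallower cells left out, none of them II-like). The difference of 356.5 ± 293.7 genes (SD, n = 4 plates) was above 0 in 4 of 4 plates, with an exact permutation p of 0.13 (two-sided), the smallest that 4 plates allow.

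The genes that stood highest in II-like neurons covered channels, peptides and enzymes. *Scnn1b* and *Scnn1g* encode the beta and gamma subunits of the epithelial sodium channel. *Scnn1b* was at 3.58, 5.08, 108 and 104 CPM in II-like neurons and at most 0.0856 CPM in the others. *Scnn1g* was at 1.47, 1.52, 48.1 and 90.1 CPM against at most 0.143 CPM. Both were higher in each P3 sum of the II-like neurons than in each E18.5 sum. *Plk5*, a polo-like kinase gene of differentiated neurons and glia, was at 85.3, 44.9, 527 and 681 CPM in II-like neurons and 2.57, 3.74, 0.644 and 0.129 CPM elsewhere, and no value of the classes overlapped.

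The matrix gene *Tnc* (tenascin C) was at 356, 161, 155 and 305 CPM in II-like neurons, against 0.228 to 7.85 CPM. *Edaradd*, an adaptor of the ectodysplasin receptor, was at 54.3, 40.5, 257 and 326 CPM against 0.546 to 2.89 CPM. *Rnase4*, a secreted ribonuclease gene that shares its locus with *Ang*, was at 126, 137, 374 and 518 CPM against 0.607 to 12.6 CPM, and how reads were split between these overlapping genes is uncertain. These 3 genes were at or below 1.31 CPM in the other neurons of P3 and at or above 40.5 CPM in every II-like sum. *Ano2*, a calcium-activated chloride channel gene, was at 30.7, 11.8, 48.2 and 128 CPM against 0.358 to 1.47 CPM, and *Rxfp3*, the relaxin-3 receptor gene, at 15.4, 10.6, 22.1 and 62.0 CPM against 0.0903 to 0.680 CPM. For both the second P3 plate, with its 4 cells, gave the highest II-like level. *Iqgap2*, a scaffold of the cytoskeleton, was at 74.98, 47.7, 82.8 and 50.4 CPM against 0.266 to 3.01 CPM, and *Ces2g*, a carboxylesterase gene, at 21.2, 16.1, 80.5 and 98.1 CPM against 0.110 to 2.595 CPM.

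Transmitter-related genes were among them. *Th* stood at 350.3, 330.2, 624 and 1052 CPM in II-like neurons and 39.0, 40.6, 6.20 and 0.698 CPM in the others. *Ddc*, the next enzyme of the pathway to dopamine, had 0 counts in all 4 II-like sums, within the limits given for a count of 0, and at most 1.08 CPM in the others. *Tac1*, the precursor of substance P, was at 167, 179, 176 and 46.7 CPM against 8.55, 11.01, 8.61 and 0 CPM, and *Calca*, the precursor of the calcitonin gene-related peptide, at 25.2, 51.1, 139.2 and 92.2 CPM against 1.22, 2.04, 0.482 and 0.281 CPM. Of the 23 peptide and amine genes with enough counts, these 3 (*Th*, *Tac1* and *Calca*) were higher in all plates, beside 1.26% of all genes tested. Before any floor on counts 5 were lower, beside 3.89%, and with counts under 3 set to 3 only the granin gene *Chgb* was. That floor also gave 5 higher genes, adding *Calcb* and *Crh*. *Chgb* stood at 169.7, 193, 97.3 and 66.0 CPM against 416 to 759 CPM. *Fgf23*, a secreted growth factor gene, was at 145, 141, 108 and 13.5 CPM against 0.915 to 1.74 CPM, with its low II-like value in the plate of 4 cells.

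The promoters of *Scnn1g*, *Scnn1b* and *Calca* are shown because the first pair are neighbours that were high in the same class, and the third stands for the peptide genes. All lie on chromosome 7 (RefSeq, GRCm38.p6), and 96555 bases separate *Scnn1g* from *Scnn1b*. Each run holds the 250 bases before a RefSeq transcript start, at chr7:121734229-121734478 on the plus strand for *Scnn1g*, chr7:121864788-121865037 on the plus strand for *Scnn1b* and chr7:114636358-114636607 on the minus strand for *Calca*, and capitals mark letters that match the core read by GATA factors. The *Calca* run lies within the gene, which spans 114625981 to 114636910, and the *Scnn1g* run reaches into its gene, which starts at 121734420. Both therefore precede an inner transcript start.
Scnn1g: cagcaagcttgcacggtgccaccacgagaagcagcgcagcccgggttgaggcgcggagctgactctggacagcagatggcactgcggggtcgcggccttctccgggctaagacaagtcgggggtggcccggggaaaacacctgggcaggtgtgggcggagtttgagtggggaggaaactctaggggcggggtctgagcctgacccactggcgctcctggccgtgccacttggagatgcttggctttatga
Scnn1b: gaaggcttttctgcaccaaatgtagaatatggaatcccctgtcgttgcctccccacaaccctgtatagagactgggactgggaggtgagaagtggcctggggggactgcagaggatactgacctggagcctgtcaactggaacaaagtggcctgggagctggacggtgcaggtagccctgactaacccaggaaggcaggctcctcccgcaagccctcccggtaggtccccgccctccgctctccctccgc
Calca: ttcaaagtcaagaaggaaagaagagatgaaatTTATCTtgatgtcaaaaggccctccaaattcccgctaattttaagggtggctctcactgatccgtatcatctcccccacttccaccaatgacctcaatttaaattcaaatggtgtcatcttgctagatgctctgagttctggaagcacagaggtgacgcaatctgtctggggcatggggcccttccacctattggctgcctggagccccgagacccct
The letters searched on both strands were AGATAA and its forms with T as the first base, G as the last base, or both. *Calca* holds 1 match, read on the opposite strand, and the other two hold none. Of the 14 named higher genes with a listed promoter, 5 hold a match in any promoter, while 29.7% of all 27025 genes with a listed promoter do (8039). A match is a description of letters and not a bound site.

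Among 40 transcription factors taken from the study's account, 6 were higher and 10 lower in II-like neurons of all plates, beside 1.26% and 3.89% of all genes tested. Since they were picked from such data, their direction is not independent evidence. *Etv4* and *Etv5*, ETS factors downstream of growth factor receptors, were higher, with *Etv4* at 95.9, 102, 54.1 and 35.0 CPM against 2.38 to 28.1 CPM (log2 ratio 3.07 ± 1.28, mean ± SD over 4 plates). *Zfhx3* had a smaller ratio of 1.58 ± 0.48. *Ppargc1a*, the coactivator of mitochondrial biogenesis, was lower with -2.29 ± 0.70, although it was the only one of 24 mitochondrial energy genes to be called in either direction. *Neurod1* and *Bhlhe22*, bHLH factors, were each under 3 CPM in every II-like sum, against 6.99 to 14.2 and 9.13 to 16.8 CPM in the others.

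Of 47 potassium channel genes, 1 was higher and 9 were lower, where 1.26% of all genes tested were higher and 3.89% lower. The higher one was *Kcnc4*, a fast A-type channel subunit gene, at 56.4, 57.8, 95.8 and 119 CPM against 21.1, 18.8, 7.17 and 3.54 CPM. *Kcna1*, a low-threshold channel of axons, was lower at 33.9, 13.0, 74.3 and 42.7 CPM against 116 to 316 CPM, and the sodium-activated channel *Kcnt1* at 14.6, 20.1, 2.37 and 1.33 CPM against 72.8 to 102 CPM. The KChIP genes *Kcnip1*, *Kcnip2* and *Kcnip3*, calcium sensors of A-type channels, were lower, with *Kcnip1* at 2.84, 4.16, 2.78 and 0.530 CPM against 22.6, 18.04, 159.6 and 173 CPM and *Kcnip3* at 1.89, 0, 0 and 0 CPM against 4.29, 4.30, 52.3 and 76.9 CPM. *Kcnip4*, of the same family, was not called, at 19.8, 26.5, 41.4 and 27.8 CPM against 45.6, 49.1, 35.4 and 38.0 CPM. Of 14 sodium channel genes *Scn11a* was higher and 1 was lower, and of 20 calcium channel genes none was higher and 2 were lower.

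Receptor and synaptic genes were called in both directions, beside the 1.26% higher and 3.89% lower of all genes tested. Of 23 glutamate receptor genes, *Grin2a*, *Grin3a* and *Grik3* were higher and *Grm7* lower. *Grin3a*, an NMDA receptor subunit gene, was at 66.1, 66.2, 73.1 and 47.4 CPM against 6.65 to 17.0 CPM, a log2 ratio of 2.48 ± 0.60, and the kainate receptor gene *Grik3* had 3.45 ± 1.76. Of 29 purinergic, nicotinic, acid-sensing and TRP channel genes, *Asic2* and the mechanosensitive channel *Piezo2* were higher, with *Piezo2* at 4.73, 1.63, 14.96 and 10.9 CPM against 0.0226 to 1.31 CPM, and the nicotinic subunit *Chrna4* lower. *Asic2* was at 13.0, 14.9, 14.1 and 17.8 CPM, and its mean log2 ratio turned to -2.20 once cells with glial signal were left out. Of 34 genes of synaptic release, *Syt15* was higher and the calcium sensors *Syt2* and *Syt7* and the vesicle protein *Sv2c* were lower. *Syt2* was at 1.16, 0, 2.78 and 0 CPM against 5.94 to 42.8 CPM, and *Syt7* had a log2 ratio of -1.50 ± 0.40.

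Calcium-binding proteins were split by member. Of 17 such genes, *Necab1* and *Hpcal1* were higher and *Pvalb*, *Calb1*, *Calb2*, *Vsnl1* and *Cabp1* lower. Over all genes tested, 1.26% were higher and 3.89% lower. *Necab1* was at 221, 286, 876 and 839 CPM against 50.3 to 113 CPM. *Vsnl1*, visinin-like protein, was at 12.3, 14.4, 19.4 and 17.49 CPM against 78.0, 74.6, 800.0 and 829 CPM, with all II-like values below all others. *Calb1* (calbindin) was at 9.57, 5.69, 2.17 and 0.265 CPM against 67.0 to 472 CPM.

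Wiring and signalling genes were called in both directions, again beside 1.26% higher and 3.89% lower of all genes tested. Of 33 BMP and TGF-beta genes 4 were higher and none lower: the extracellular antagonists *Nbl1* and *Nog* and the inhibitory *Smad6* and *Smad7*, all negative regulators by their known role. Other inhibitors of the list, among them *Chrd*, *Grem1*, *Fst* and *Bambi*, were not called higher. With counts under 3 set to 3, the receptor gene *Bmpr1b* and the ligand genes *Bmp2* and *Tgfb1* were higher too. *Nog* was at 7.57, 6.91, 102 and 132.8 CPM against 1.12 to 4.68 CPM, and *Nbl1* at 13.7, 14.1, 66.1 and 60.4 CPM against 0.798 to 2.50 CPM. Of 32 guidance receptors, *Plxna2*, *Epha6* and *Unc5b* were higher and *Epha4*, *Dcc* and *Robo1* lower. *Epha6* was at 28.1, 18.1, 8.46 and 5.04 CPM against 0.524 to 1.61 CPM, a log2 ratio of 3.63 ± 0.37, whereas *Epha4* had -1.67 ± 0.55. Of 30 guidance ligands none was higher and *Sema3d*, *Sema3e* and *Rgma* were lower, with *Sema3e* at 101, 83.3, 43.9 and 13.3 CPM against 497 to 694 CPM. Of 18 neurotrophin and GDNF family receptors only *Gfra1*, the GDNF co-receptor, was called, at 302, 279, 169.7 and 221 CPM against 125, 117, 10.9 and 12.5 CPM, and of 28 cadherin genes *Pcdh20* was higher with 2.99 ± 0.63 and *Cdhr1* lower.

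The remaining genes named as lower had little RNA in II-like neurons. *Lypd1*, a modulator of nicotinic receptors, was at 5.47, 0.610, 0.0677 and 0 CPM against 109.6 to 150.96 CPM. *Cx3cl1*, the chemokine fractalkine, was at 1.79, 0.102, 0 and 0.265 CPM against 12.4 to 69.8 CPM, and *Pld5*, an inactive phospholipase D relative, at 1.58, 0.610, 0.812 and 0 CPM against 17.3 to 222 CPM. The uncharacterised genes *D130009I18Rik*, *1700026D08Rik* and *Fam184b* were at or below 5.18 CPM in every II-like sum, against minima of 18.51, 10.49 and 13.4 CPM in the others.

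Within the class, *Tac1* covered most cells and *Calca* a part of them. *Prph* had counts in 46 of 46 II-like cells at E18.5 and 21 of 21 at P3, and *Plk5* in 38 and 21. *Th* and *Calca* both reached 10 CPM in 24 of 46 cells at E18.5, *Th* alone in 19, *Calca* alone in 1 and neither in 2. At P3 these numbers were 12, 5, 4 and 0 of 21. *Th* and *Tac1* both reached 10 CPM in 37 of 46 and 16 of 21 cells. Each cell that reached 10 CPM of *Calca* also reached it for *Tac1*, 25 at E18.5 and 16 at P3. *Tac1* had counts in 40 of 46 and 21 of 21 cells and *Fgf23* in 37 and 12, and no cell of either stage reached 10 CPM of *Fgf23* without *Tac1*. In the other neurons *Tac1* had counts in 188 of 640 cells at E18.5 and 5 of 480 at P3, and *Calca* in 60 and 17. With each cell thinned to 100000 counts, *Plk5* was seen in 73.9% of II-like cells at E18.5 and 100% at P3, and *Calca* in 52.2% and 76.2%, against 82.6%, 100%, 58.7% and 76.2% before thinning.

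**Figure D3:**
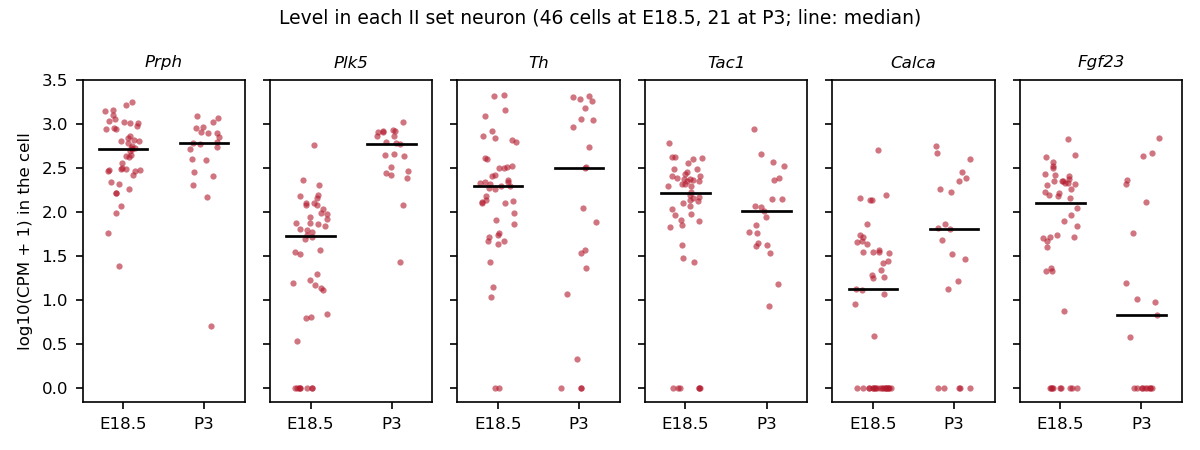
Each point is 1 II-like neuron (46 at E18.5, 21 at P3), with log10(CPM + 1) of 6 genes on the vertical axis and the median as a line. *Plk5* runs from a median of 51.8 CPM at E18.5 to 597.9 CPM at P3, *Th* and *Calca* spread from 0 to the top of their ranges at both stages, and *Fgf23* goes from a median of 125.9 to 5.81 CPM.

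The second comparison asked how II-like neurons differed between E18.5 and P3, tested with edgeR's quasi-likelihood test over all genes. At a Benjamini-Hochberg adjusted p under 0.05, 1459 genes (9.22% of those tested) were higher and 1773 (11.2%) lower at P3, with a median change of -0.15 over all genes. The count rests on both E18.5 plates: without either one no gene was called (2726 and 2979 at an unadjusted p under 0.05), and without a P3 plate 6890 and 5501 were. Leaving out cells with glial signal, which keeps 2, 6, 3 and 1 members, left 371 calls, and of 78 genes examined singly 54 lost the call there, 6 had the other sign and 6 had no count. The share higher, 45.1%, was 33.5% in a limma fit to means over cells. The stages also stood apart in the spike-in share and depth of the cells, whose part was not tested: in the median II-like cell of the plates ERCC made up 0.00975%, 0.0141%, 2.44% and 2.27% of counts, and the counts per cell were 333970, 493980, 873000 and 956450. Changes below are log2 of P3 over E18.5 ± SE, with the adjusted p of the edgeR test.

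Of the 10 type II genes *Plk5*, *Calca* and *Tshz3* rose and none fell, where 9.22% of all genes tested rose and 11.2% fell. *Plk5* rose by 3.21 ± 0.56 (adjusted p = 0.0106) and *Calca* by 1.60 ± 0.45 (adjusted p = 0.0435). The call of *Calca* was lost without the first P3 plate (adjusted p = 0.0716), at a score over 1.5 (0.0667), against the 3 other sets (0.13) and in the limma fit (0.0779). For *Prph* the change was -0.07 ± 0.50 (adjusted p = 0.946) and for *Gata3* -0.17 ± 0.16 (adjusted p = 0.478), neither past the threshold. Of the 10 type I genes, 6 fell and 1 rose. *Prox1* changed by -2.28 ± 0.32 (adjusted p = 0.00564), *Runx1* by -3.47 ± 0.51 (adjusted p = 0.00625) and *Calb1* by -2.19 ± 0.48 (adjusted p = 0.0196). At a score over 1.5 *Runx1* and *Calb1* were not called (-2.13 and -1.47, adjusted p = 0.0531 and 0.112), and the P3 sum of 4 cells held 0 and 1 count of them, so that without the first P3 plate the change of *Calb1* was -4.85. *Rora*, an orphan nuclear receptor gene, went from 12.8 and 9.45 CPM to 1 count in both P3 sums together (adjusted p = 0.00189). The gene that rose was *Pvalb*, by 1.85 ± 0.37 (adjusted p = 0.0148), and its change was -0.35 without cells with glial signal.

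Synaptic and excitability genes changed in both directions, where 9.22% of all genes tested rose and 11.2% fell. Of 34 synaptic release genes 12 rose and 4 fell. *Slc17a6*, the vesicular glutamate transporter VGLUT2, rose by 2.26 ± 0.24 (adjusted p = 0.00355), from 123 and 96.2 to 407 and 646 CPM. *Slc17a7* (VGLUT1) rose by 1.69 ± 0.36 (adjusted p = 0.0183), a change of -0.01 without cells with glial signal. The SNARE gene *Snap25* rose by 1.11 ± 0.14 and complexin *Cplx1* by 1.18 ± 0.17 (adjusted p = 0.00454 and 0.00602). Of 14 sodium channel genes 4 rose, among them *Scn1a* with 1.09 ± 0.14 (adjusted p = 0.00454), and 2 fell. Without cells with glial signal the changes of *Cplx1* and *Scn1a* were 0.44 and 0.33, neither called (adjusted p = 0.124 and 0.953). Of 47 potassium channel genes 2 rose (*Kcna2* and *Kcnk1*) and 11 fell, among them *Kcnt1* with -3.09 ± 0.30 (adjusted p = 0.00300). Of the calcium channels 2 rose and 5 fell, and the heavy neurofilament *Nefh* rose by 1.34 ± 0.24 while *Vim* fell (adjusted p = 0.0106 and 0.0129).

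Guidance genes mostly fell where they changed. Of 32 guidance receptors 12 fell and 1 rose, and of 30 ligands 9 fell and none rose. *Dcc*, the netrin receptor, went from 14.51 and 20.6 to 0.745 and 0 CPM, a change of -5.02 ± 0.61 (adjusted p = 0.00444), and *Epha4* changed by -1.11 ± 0.17 (adjusted p = 0.00668). Of 18 neurotrophin and GDNF receptors 7 fell and 3 rose. *Kit* changed by -1.94 ± 0.24 and the neurotrophin-3 receptor *Ntrk3* by -0.88 ± 0.14 (adjusted p = 0.00451 and 0.00746). Members without glial signal held no count of *Kit* at either stage. In the BMP list 5 rose and 4 fell, and *Nog* rose by 4.02 ± 0.43 (adjusted p = 0.00341), from 7.57 and 6.91 to 102 and 132.8 CPM. Of 24 mitochondrial energy genes 8 rose and 3 fell, of 28 cadherins 4 rose and 5 fell, of the calcium-binding genes 4 rose and 3 fell, and of 29 purinergic, nicotinic and TRP channel genes 2 rose and 8 fell. Over all genes tested 9.22% rose and 11.2% fell, and counts as small as those of the cadherin and BMP lists are not read as results about these lists. The purinergic receptor *P2rx3* changed by -0.55 ± 0.11 (adjusted p = 0.0166). Of the transcription factors 4 rose and 9 fell, with *Etv4* at -1.14 ± 0.25 (adjusted p = 0.0216) and at 0.06 without cells with glial signal.

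Genes of other cells changed as well, where 9.22% of all genes tested rose and 11.2% fell. Of 11 glial genes 5 rose, among them the myelin genes *Mbp*, *Cnp*, *Mal* and *Pmp22*, and *Erbb3* and *Fabp7* fell. *Mbp* went from 223 and 102 to 1939 and 2142 CPM in II-like neurons and from 183 and 167 to 2046 and 2763 CPM in the others, so that both classes carried it. Without cells with glial signal the change of *Mbp* in II-like neurons was -0.06, against 3.65 ± 0.36 with them, and that of *Cnp* -0.84, against 0.92 ± 0.26. Of the 10 dissociation stress genes 5 fell and none rose, *Fos* with a change of -1.55 ± 0.33 (adjusted p = 0.0189, and -0.25 without cells with glial signal), and the mesenchyme gene *Col1a2* fell (adjusted p = 0.00785).

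Among the genes with the greatest rise, several had almost no counts at E18.5. *Srgn*, the proteoglycan serglycin, had no count at E18.5 and 24.4 and 17.2 CPM at P3, at least 134-fold higher by 3 counts over the E18.5 sums (adjusted p = 0.00655). *Mme*, the peptidase neprilysin, was at 0.315, 0, 38.8 and 86.7 CPM and *Bace2*, an aspartyl protease gene, at 0.946, 0.102, 20.8 and 52.5 CPM (adjusted p = 0.00330 and 0.00733). *Ogn*, the matrix proteoglycan osteoglycin, rose by 6.02 ± 0.40 (adjusted p = 0.00154), and in the other neurons it went from 3.01 and 3.22 to 125 and 193 CPM. *Crabp1*, which binds retinoic acid, was at 0.946, 0.305, 17.53 and 55.7 CPM in II-like neurons and at 0.501 to 0.980 CPM elsewhere (adjusted p = 0.00716 for its rise). *Mt2*, *Fa2h* and *Dupd1* also rose, with adjusted p = 0.00589, 0.00944 and 0.0196. The 12 members without glial signal held no count of *Srgn*, *Mme*, *Bace2*, *Crabp1* or *Fa2h* at either stage, and in them the change of *Dupd1* was 1.03 (adjusted p = 0.895). They held 3 counts of *Ogn* and 8 of *Mt2*, all in the first P3 plate, and the rise of *Ogn* was not called in them (adjusted p = 0.367). *Xist*, the RNA of the inactive X chromosome, was at 0, 0.102, 254 and 60.7 CPM. It was seen in 3.80% of the thinned other neurons at E18.5 and 44.3% at P3. The study used mice of either sex without giving the sex in each plate.

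The size of the greatest falls is uncertain, since the P3 sum of 4 cells held 0 or 1 count of each gene named here. Each fall kept its direction with any single plate left out. It was larger without the first P3 plate and smaller without the second. *Postn*, the matrix protein periostin, went from 120.1 and 74.6 to 4.87 and 0.265 CPM, a change of -4.90 ± 0.84 (adjusted p = 0.00988), beside the mesenchyme sums above. The matrix genes *Col6a3* and *Matn4* and the membrane protein gene *Ptgfrn* fell with adjusted p = 0.00811, 0.0111 and 0.00773. For these genes and *Postn* the share of other neurons with counts also fell from E18.5 to P3. It went from 55.5% to 12.7% for *Postn* and from 45.8% to 7.29% for *Col6a3*. For *Matn4* it went from 59.4% to 11.25% and for *Ptgfrn* from 55.6% to 10.8%. The 12 members without glial signal held no count of *Postn*, *Col6a3* or *Matn4* at either stage. *Foxm1*, a factor of dividing cells, changed by -5.14 ± 0.87 (adjusted p = 0.00950). *Adam11*, a catalytically inactive ADAM of neurons, went from 46.6 and 54.1 to 2.57 and 0.265 CPM (adjusted p = 0.00309), while the other neurons had 107 and 111 and then 55.2 and 54.9 CPM. *Synm* (synemin), *4930427A07Rik* and *I730030J21Rik* fell with adjusted p = 0.00592, 0.00841 and 0.0150. The share of other neurons with counts went from 33.9% to 9.79% for *Foxm1* and from 64.7% to 18.96% for *4930427A07Rik*. For *I730030J21Rik* it went from 40.3% to 13.5%. For *Synm* this share did not fall, at 86.9% and 87.5%.

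The third comparison tested whether the change to P3 differed between II-like and other neurons (the interaction in the same edgeR fit). It did for 77 genes, of which 33 (0.208% of genes tested) changed more upward and 44 (0.278%) more downward in II-like neurons. With the plate as a block, which pairs the classes of a plate, 16 genes were called (10 upward, 6 downward), and 13 of them were among the 77. Without either E18.5 plate no gene was called (733 and 696 at an unadjusted p under 0.05), and without a P3 plate 3685 and 564 were. None was called without cells with glial signal (1451 at an unadjusted p under 0.05), and 4 were against the 3 other sets. Differences are log2, II-like minus other, ± SE.

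Called in both fits, *Sorcs3*, a sorting receptor gene, stood at 48.4, 45.8, 81.4 and 173 CPM in II-like neurons and 17.52, 23.9, 0.192 and 0.334 CPM in the others, a difference of 7.76 ± 0.63 (adjusted p = 0.00933, with the block 0.00936). It was kept in one class and near 0 at P3 in the other. *Rnase4* differed by 5.63 ± 0.36 (adjusted p = 0.00260, with the block 0.0186) and *Edaradd* by 4.45 ± 0.43 (adjusted p = 0.0145, with the block 0.0164). *Gfra1* changed by -0.58 ± 0.16 in II-like neurons and by -3.37 in the others (adjusted p of the difference = 0.00933, with the block 0.0164). The thrombin receptor gene *F2r* was at 771, 849.6, 744 and 643 CPM against 73.0, 75.6, 9.89 and 8.94 CPM, a difference of 2.76 ± 0.17 (adjusted p = 0.00260, with the block 0.00936), and the follistatin-like gene *Fstl5* differed by 2.63 ± 0.23 (adjusted p = 0.0100, with the block 0.0331). *Vsnl1* went the other way with -2.94 ± 0.18 (adjusted p = 0.00260, with the block 0.0172), as its level in the other neurons went from 78.0 and 74.6 to 800.0 and 829 CPM and in II-like neurons from 12.3 and 14.4 to 19.4 and 17.49 CPM. *Efemp1*, a fibulin gene, went from 44.7 and 25.1 to 0.406 and 0 CPM in II-like neurons and from 36.0 and 30.9 to 64.9 and 60.8 CPM in the others (adjusted p = 0.0122, with the block 0.0443).

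Other genes passed only without the block. *Scnn1g*, *Scnn1b* and *Plk5* changed more upward (adjusted p = 0.0145, 0.0319 and 0.0377, with the block 0.0719, 0.0849 and 0.0984), as did *Cpne8*, a copine gene, at 13.99, 14.8, 129 and 158 CPM against 0.364 to 3.15 CPM (adjusted p = 0.0358, with the block 0.0903). *Gata3* differed by 1.58 ± 0.23 (adjusted p = 0.0458, with the block 0.115). Downward, *Calb1* differed by -4.84 ± 0.57, *Kcnk1* by -2.24 ± 0.23 and *Chgb* by -1.86 ± 0.26 (adjusted p = 0.0279, 0.0177 and 0.0427, with the block 0.0903, 0.0629 and 0.109). *Kcnk1*, a two-pore potassium channel gene, rose in II-like neurons from 52.9 and 63.9 to 114 and 93.8 CPM, where the others went from 40.4 and 43.5 to 326 and 381 CPM. *Kcnn2*, a small-conductance calcium-activated channel gene, had no count in the II-like sums of P3, at least 15.3-fold lower than at E18.5 (3 counts over both sums), and 28.3 and 29.2 CPM in the others (adjusted p = 0.0279, with the block 0.140). *Rora*, *Fam184b*, *1700026D08Rik* and *Ccdc109b* were likewise at 0 or 1 count in the II-like P3 sums and at 41.1 and 42.6, 54.5 and 68.5, 65.4 and 87.1 and 22.5 and 29.6 CPM in the others.

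**Figure D4:**
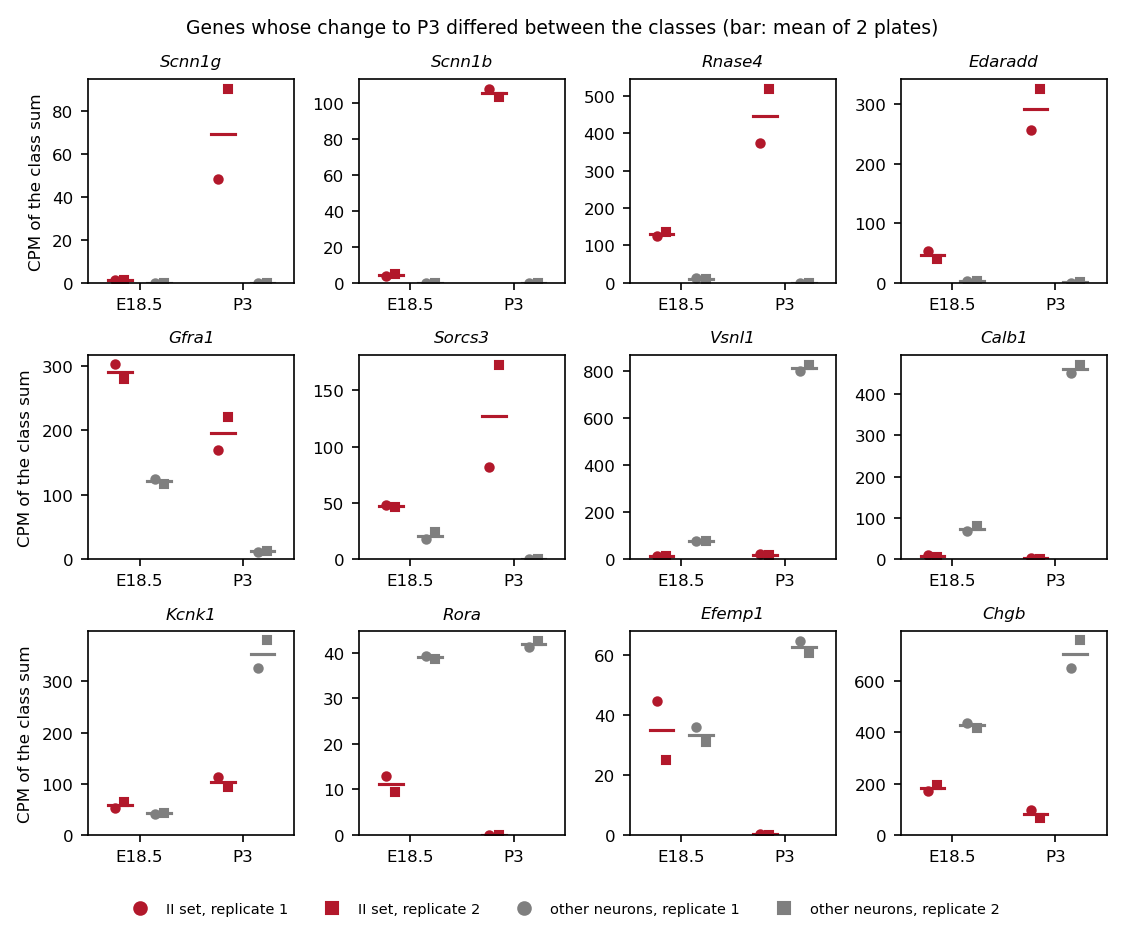
CPM (vertical, from 0) of 12 genes called in the test of the difference of changes, in the II-like sum (red) and the other neurons (grey) of each plate, with bars at the mean of 2 plates. The 6 genes from *Scnn1g* to *Sorcs3* lie higher in II-like neurons at P3, and *Vsnl1*, *Calb1*, *Kcnk1*, *Rora*, *Efemp1* and *Chgb* lie higher in the other neurons at P3.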

How the data were processed

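Whole-number read counts per gene and cell were deposited by the authors, who aligned Smart-seq2 reads with STAR to mm10 with ERCC spike-ins and counted uniquely mapped reads. The strand setting of the counting is not given in the sources used here, so a gene and an overlapping antisense gene cannot be told apart. The 384 wells of 1 plate that the labels tie to no sample were not used. Cells needed over 1000 genes and under 5% ERCC counts. One cell was sorted per well, and no doublet caller was run.

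Counts were summed per plate for II-like and for other neurons (8 sums) and filtered with filterByExpr, leaving 15831 genes. Change to P3 and the difference of changes were tested with edgeR 4.0.16 (quasi-likelihood, TMM, Benjamini-Hochberg adjusted p under 0.05, common biological coefficient of variation 0.36). The SE is the log2 change divided by the square root of F. Ratios between the classes used TMM-scaled CPM with a prior count of 1 and were called at over 2-fold in all 4 plates. The II-like and other cells of a plate share that plate, which pairs the sums, and a fit with plate as a block was an alternative. The other alternatives were limma 3.58.1, DESeq2 1.42.0, no filter on low counts, score minima of 0.5 and 1.5, a score without *Ngfr* and *Lgmn*, members without glial signal (mean glial level under 0.5), the 3 other sets as comparison, other folds and leaving out each plate. Setting counts under 3 to 3 was added after seeing the data. The fit was also run on simulated counts with a common spread and no plate shared by the classes. False calls were counted there for the change to P3 only. The error rate of the difference of changes was therefore not checked, nor that of either test with shared plates.

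Named genes were the 15 highest and 10 lowest ratios, the 10 largest rises and falls and the 6 largest differences each way, among called genes with at least 20 CPM in the higher group, and members of the gene lists. *F2r*, *Fstl5* and *Edaradd* in the third comparison were named after their values were seen. Some genes that these rules name are not reported here. The members and lists were chosen with earlier results of these data known.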

Additional observations from a re-analysis of the deposited data

Results flagged for a closer look

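The change from E18.5 to P3 differed between II-like and other neurons in an interaction test (edgeR, Benjamini-Hochberg adjusted) for the 12 genes below, which is what brought them here. It was more upward in II-like neurons for *Scnn1g* (adjusted p = 0.0145), *Sorcs3* (0.00933), *Scnn1b* (0.0319), *Plk5* (0.0377), *Rnase4* (0.0026) and *Cpne8* (0.0358). In the other neurons these 6 genes were at or below 0.741 CPM on average at P3. It was more downward for *Ccdc109b* (adjusted p = 0.0358), *1700026D08Rik* (0.0279), *Kcnn2* (0.0279), *Fam184b* (0.0358), *Rora* (0.00933) and *Efemp1* (0.0122), all at or below 0.406 CPM in the II-like sums of P3. With the plate as a block, *Sorcs3*, *Rnase4* and *Efemp1* stayed past the threshold and the other 9 did not.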

How the results depend on the processing

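The precision is set by 2 plates per stage and, in the second P3 plate, by 4 II-like cells. The count of genes changed at P3 (3232) was 371 without cells with glial signal, 2069 against the 3 other sets and 5089 with DESeq2, which shared 3222 calls, and it ranged from 0 to 6890 when 1 plate was left out, which leaves a stage with 1 plate that is assumed to vary like the others. It stayed between 3028 and 3950 under the other 5 alternatives. The count of genes whose change differed (77) was 272 with no filter on low counts, 16 with the plate as a replicate block, 45 at a score over 1.5, 35 without *Ngfr* and *Lgmn*, 0 without cells with glial signal (1451 at an unadjusted p under 0.05), 4 against the 3 other sets and 1141 with DESeq2, and it ranged from 0 to 3685 with 1 plate left out. Upward calls were 42.9% of the 77 and 62.5% of the 16. The count of genes over 2-fold between the classes (816) was 496 at a score over 0.5, 363 from means over cells, 1296 at 1.5-fold and 357 at 4-fold, and it ranged from 1121 to 1518 with 1 plate left out, where 3 plates in place of 4 must meet the fold (1518 and 1265 without E18.5 replicates 1 and 2). Leaving out cells with glial signal reversed *Pvalb* (-0.35), *Slc17a7* (-0.0104), *Etv4* (0.0581), *Mbp* (-0.0593), *Cnp* (-0.839) and *Prph* (0.266, not called either way) in the change to P3 and *Asic2* (-2.20) between the classes. The change of *Prph* ranged from -0.433 to 0.235 with 1 plate left out and that of *Gata3* was 0.0096 at a score over 0.5, neither called. The cause of these shifts was not tested. Results for single named genes were counted as pairs of a gene and an alternative. Between the classes 906 pairs kept their call or lack of one, and 76 kept their direction but not the call. For the change to P3 these were 738 and 271 pairs, and for the difference of changes 155 and 130. The 906 include 82 with counts under 3 set to 3, a setting that also decided which lower genes were named. Without cells with glial signal 6 further genes (*Fa2h*, *Bace2*, *Col6a3*, *Matn4*, *Postn* and *Lypd1*) had no II-like count and so no direction, and 32 of 81 ratios between the classes lost the call. *Srgn*, *Mme*, *Crabp1*, *Kit*, *Mal* and *I730030J21Rik* had no II-like count there either.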
